A study of Mus musculus with 3 samples.

Results

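The receptors by which sinusoidal endothelial cells of the liver clear material from blood were examined in nuclei of 3 mouse livers. The set was 7 genes of the 32285 in the count tables, chosen by name as scavenger and endocytic receptors of this endothelium: Stab1, Stab2, Clec4g, Lyve1, Mrc1, Fcgr2b and Oit3. Single-nuclei RNA sequencing (sNuc-Seq) had been run on frozen liver of male C57BL/6 J mice, with 1 library for each mouse. The ND group was 1 normal mouse on normal diet, and the STZ-HFHC group was 2 mice whose livers had MASH-related fibrosis. They had received 0.2 mg of streptozocin (STZ), which destroys pancreatic islets, under the skin at 3 days of age. From 4 weeks of age their feed was HFHC, rich in fat and cholesterol. Age at collection was not given for these libraries, and STZ without the diet was not measured in them, so the toxin and the diet cannot be told apart. The sample titles carry different codes for the ND and STZ-HFHC mice, so a difference in processing between the groups cannot be told apart from the condition either. Where a pair of STZ-HFHC values follows an ND value, STZ-HFHC 1 comes before STZ-HFHC 2. With 1 ND mouse no spread is known for that group, and the comparison of conditions is given as values with counting intervals and no p-value.

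Liver sinusoidal endothelial cells line capillaries that have open pores and no continuous basement membrane, and they take up waste molecules from blood faster than most cells of the body. Stab1 and Stab2 encode the stabilins, large scavenger receptors, of which stabilin-2 removes hyaluronan and chondroitin sulfate. Lyve1 encodes another hyaluronan receptor, known also from lymphatic vessels. Mrc1 encodes the mannose receptor CD206, which takes up mannose-ended glycoproteins and collagen fragments and is found on macrophages too. Fcgr2b encodes the inhibitory Fc receptor for IgG, which in the sinusoid removes small immune complexes and is also made by B cells and myeloid cells. Clec4g encodes LSECtin, a C-type lectin of sinusoidal endothelium. Oit3 encodes a zona pellucida domain protein rather than a classical receptor. When the liver scars, sinusoidal endothelium is known to lose its pores and gain features of continuous capillaries, a change called capillarization.

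All 7 genes are protein coding, and their positions are those of the GRCm38 build (GENCODE M21). Mrc1 is on the plus strand and the other 6 genes are on the minus strand. Stab2 lies on chromosome 10 (chr10:86841198-87008025), Stab1 on chromosome 14 (chr14:31139013-31168641) and Mrc1 on chromosome 2 (chr2:14229392-14332057). Fcgr2b lies on chromosome 1 (chr1:170958617-170976547), Clec4g on chromosome 8 (chr8:3707064-3720651), Lyve1 on chromosome 7 (chr7:110850607-110863239) and Oit3 on chromosome 10 (chr10:59422958-59441778). Their spans run from 12.6 kb in Lyve1 to 167 kb in Stab2, and 5.25% of the Stab2 span is exonic against 34.7% of the Stab1 span. Nuclear RNA holds unspliced transcripts, so levels were compared between nuclei and libraries for 1 gene at a time and not between genes.

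The promoters of 5 of the 7 genes were in the RefSeq promoter table (GRCm38.p6). Shown are those of Stab2 and Clec4g, the pair among the 7 genes whose levels were most alike over nuclei classes and libraries, and that of Mrc1, whose levels in macrophage-like and endothelial-like nuclei overlapped. Each sequence ends at the RefSeq start, or where the GENCODE gene begins if that lies earlier, which took 83 bases off the Stab2 window and 22 off the Mrc1 window. Positions are chr10:87008026-87008192 (minus strand) for Stab2, chr8:3720652-3720901 (minus strand) for Clec4g and chr2:14229164-14229391 (plus strand) for Mrc1. Capitals mark short words known from 3 kinds of factor, searched on both strands. The ETS words were CAGGAA and its variant CCGGAA. The PU.1 word was GAGGAA. The GATA words were AGATAA with its variant AGATAG, together with the word TGATAA with its variant TGATAG.
Stab2: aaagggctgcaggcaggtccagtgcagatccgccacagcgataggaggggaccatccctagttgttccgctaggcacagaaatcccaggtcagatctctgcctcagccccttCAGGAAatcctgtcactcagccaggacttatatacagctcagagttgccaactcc
Clec4g: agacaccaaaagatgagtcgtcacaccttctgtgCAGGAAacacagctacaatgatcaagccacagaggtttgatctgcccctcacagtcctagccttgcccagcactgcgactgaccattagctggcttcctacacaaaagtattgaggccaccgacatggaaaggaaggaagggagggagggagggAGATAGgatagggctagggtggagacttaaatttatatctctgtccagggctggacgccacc
Mrc1: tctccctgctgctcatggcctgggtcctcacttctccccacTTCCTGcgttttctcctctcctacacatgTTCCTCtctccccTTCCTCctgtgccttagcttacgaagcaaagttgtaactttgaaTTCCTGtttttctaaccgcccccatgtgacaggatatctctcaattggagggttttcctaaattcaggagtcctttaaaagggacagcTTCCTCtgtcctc
The Stab2 window held 1 ETS word, the Clec4g window held 1 ETS word and 1 GATA word, and the Mrc1 window held 2 ETS words and 3 PU.1 words, none of which overlapped. Of 27025 promoter windows of 250 bases in the table, 34.9% held an ETS word, 27.1% a GATA word and 23.1% a PU.1 word. These matches are descriptions of the letters.

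After the limits on genes and mitochondrial counts, 8494 ND nuclei remained, with 8921 and 10921 from the STZ-HFHC mice. Each library held 42715797 to 55632923 UMIs (unique molecular identifiers, 1 for each captured transcript). Pairs of libraries shared 29 to 32 barcodes. Clusters were named without any of the 7 genes, from marker lists in which the endothelial list had 20 genes, among them Ptprb, Kdr, Pecam1, Cdh5 and Erg. Endothelial-like nuclei numbered 1174 in ND (13.8%, exact binomial 95% interval 13.1 to 14.6%), 901 in STZ-HFHC 1 (10.1%, 9.48 to 10.7%) and 1125 in STZ-HFHC 2 (10.3%, 9.74 to 10.9%). All 20 endothelial markers were at least 2-fold over hepatocyte-like nuclei in each library. The class had been named from these same markers, so this describes the class and does not test its label. Hepatocyte transcripts were found in every class, and none of the 10 hepatocyte markers was 2-fold higher in hepatocyte-like than in endothelial-like nuclei of any library.

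The endothelial-like nuclei of the 2 conditions stood apart in ways that touch every comparison between them. Of the 1174 ND nuclei, 1159 lay in cluster 10, led by Gm16271, Gm15622 and Exoc3l2, while 879 and 1091 STZ-HFHC nuclei lay in cluster 6, led by Pgm5, Cdh13 and Shisa9. The median nucleus held 5164.5 UMIs in ND and 1771 and 1989 in the STZ-HFHC libraries. The summed endothelial markers were at 2386 CPM (UMIs per 1000000 UMIs of the class) in ND and at 7097 and 4232 CPM in STZ-HFHC 1 and 2. The summed hepatocyte markers were at 17749.6 CPM in ND against 10932 and 15134 CPM. ND endothelial-like nuclei were thus deeper and held a smaller share of endothelial transcripts.

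Each gene was detected in endothelial-like nuclei of each library. Stab2, the hyaluronan scavenger, was at 911 CPM in ND (6439 UMIs, exact Poisson 95% interval 889 to 933), 1716 in STZ-HFHC 1 (1667 to 1765) and 1026 in STZ-HFHC 2 (996 to 1058). Mrc1 was at 227 CPM in ND (216 to 239), 508 in STZ-HFHC 1 (482 to 535) and 323 in STZ-HFHC 2 (306 to 341). Stab1 was at 85.4 CPM in ND (78.8 to 92.5), 178 in STZ-HFHC 1 (163 to 194) and 156 in STZ-HFHC 2 (144 to 168). In these 3 genes ND was the lowest library, and the intervals of ND and either STZ-HFHC library did not overlap. Clec4g was at 71.9 CPM in ND (65.7 to 78.4), 94.8 in STZ-HFHC 1 (83.6 to 107) and 86.2 in STZ-HFHC 2 (77.5 to 95.6), and the ND interval overlapped that of STZ-HFHC 2. For the other 3 genes the ND interval was again below both STZ-HFHC intervals. Fcgr2b was at 42.3 CPM in ND (37.6 to 47.4), 124 in STZ-HFHC 1 (112 to 138) and 69.8 in STZ-HFHC 2 (61.9 to 78.3). Oit3 was at 20.7 CPM in ND (17.4 to 24.3), 54.6 in STZ-HFHC 1 (46.3 to 64.1) and 31.6 in STZ-HFHC 2 (26.4 to 37.5). Lyve1 was at 9.76 CPM in ND (69 UMIs, 7.59 to 12.4), 49.9 in STZ-HFHC 1 (138 UMIs, 41.9 to 59.0) and 28.0 in STZ-HFHC 2 (116 UMIs, 23.1 to 33.6). All 7 genes were lowest in ND and highest in STZ-HFHC 1, as the summed endothelial markers were. These intervals cover counting error only.

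Across the 8 named classes, endothelial-like nuclei had the highest median level over the libraries for Stab1, Stab2, Clec4g, Lyve1 and Oit3. For Stab1, Stab2 and Clec4g the lowest endothelial-like value was above the highest value of every other class. For Stab2 the next class was B cell-like nuclei, at 399.8 to 486 CPM, and hepatocyte-like nuclei were lowest, at 80.1 to 119.5 CPM. For Clec4g the endothelial-like range was 71.9 to 94.8 CPM and the B cell-like range 31.2 to 37.2 CPM. Lyve1 ranked highest in endothelial-like nuclei by its median of 28.0 CPM. Its ND value of 9.76 CPM was below the highest B cell-like value of 14.9 CPM, which came from 8 UMIs in STZ-HFHC 2. The same held for Oit3, at 20.7 CPM in endothelial-like nuclei of ND against a highest B cell-like value of 24.93 CPM, from 4 UMIs in STZ-HFHC 1. Within each library, endothelial-like nuclei had the highest level of both Lyve1 and Oit3 among the named classes. Mrc1 did not separate the 2 classes that are known to use it: it was at 183 to 474 CPM in macrophage-like and 227 to 508 CPM in endothelial-like nuclei. Fcgr2b ranked highest in monocyte-like nuclei, at 44.4 to 107 CPM (39 nuclei in ND, where Ly6c2, Chil3 and S100a4 of 8 monocyte markers were at 0), a range that overlapped the 42.3 to 124 CPM of endothelial-like nuclei. B cell-like nuclei, whose type is known for this Fc receptor, had 21.9 to 31.6 CPM of Fcgr2b, from 16 UMIs in ND and 4 and 17 in the STZ-HFHC mice. Since the genes were chosen for sinusoidal endothelium, this order is a description and was not tested.

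**Figure D1:**
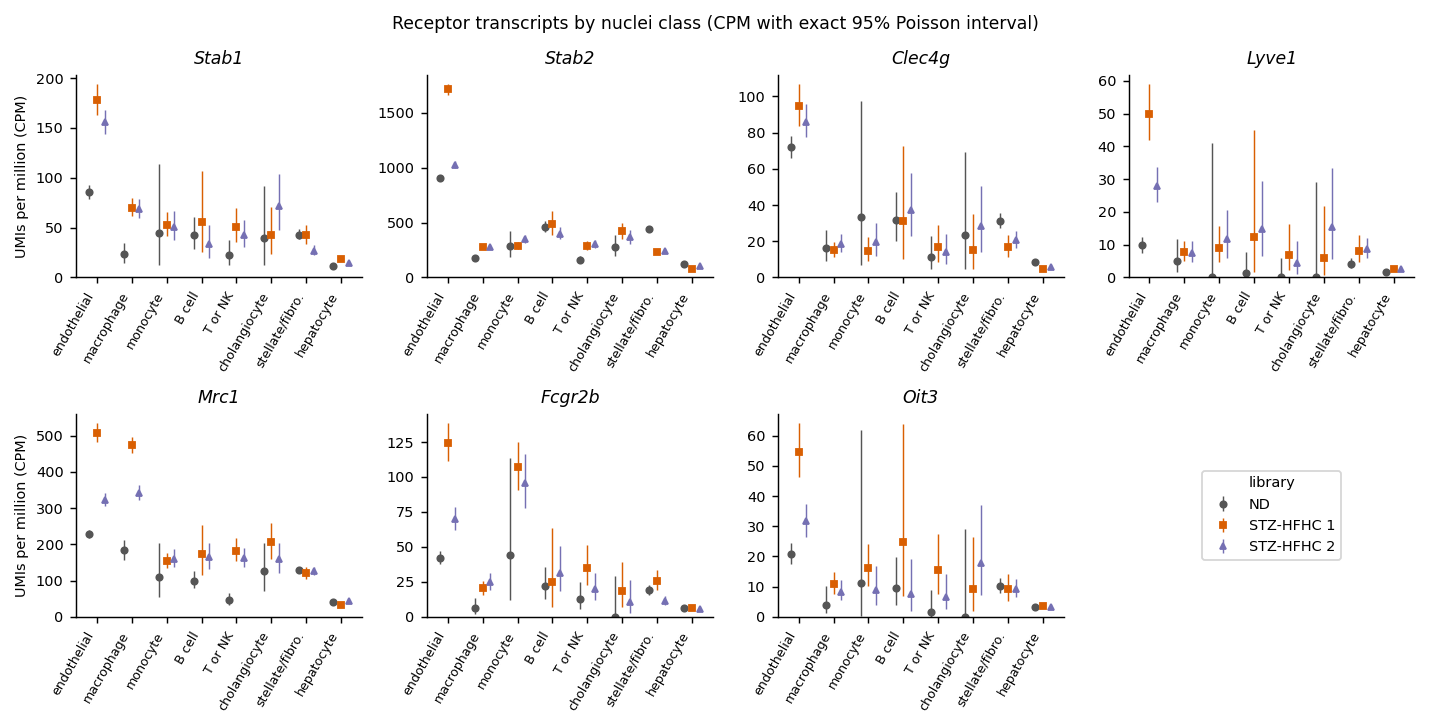
Level of each of the 7 genes (vertical axis, CPM, linear from 0) in 8 nuclei classes, with 1 point per library and bars for the exact 95% Poisson interval. Stab2 reaches 911 to 1716 CPM in endothelial-like nuclei and 80.1 to 119.5 CPM in hepatocyte-like nuclei, while the Mrc1 levels of macrophage-like nuclei (183 to 474 CPM) and endothelial-like nuclei (227 to 508 CPM) overlap.

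Detection was also compared at equal depth, with each nucleus thinned to 1000 UMIs and shallower ones left out (122 endothelial-like nuclei from the ND library, 101 and 95 from the STZ-HFHC ones). A Stab2 UMI was then seen in 56.9% of endothelial-like nuclei in ND and 76.6% and 60.9% in the STZ-HFHC mice. In hepatocyte-like nuclei, which should lack the gene, the share was 13.03%, 9.06% and 10.6%. Before thinning, the share was 91.7%, 88.9% and 84.3% in endothelial-like nuclei, and in hepatocyte-like nuclei it was 41.3 to 51.4%, at median depths of 4077 to 7891.5 UMIs. Lyve1 was seen in 1.52% of thinned endothelial-like nuclei in ND (exact binomial 95% interval 0.872 to 2.46%), 6.75% in STZ-HFHC 1 (5.11 to 8.72%) and 4.08% in STZ-HFHC 2 (2.95 to 5.47%), against 0.231 to 0.333% of hepatocyte-like nuclei. Unthinned, the Lyve1 share was 5.54%, 12.99% and 8.53% in endothelial-like and 0.799 to 2.08% in hepatocyte-like nuclei. Detection of both genes was thus above that of hepatocyte-like nuclei in each library. At least 2 of the 7 genes were seen in 32.1%, 60.1% and 45.8% of endothelial-like nuclei and in 0.966 to 1.65% of hepatocyte-like nuclei. Before thinning, at least 2 genes were seen in 80.4%, 80.1% and 76.0% of endothelial-like nuclei, values closer to each other than the thinned ones.

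The receptor transcripts did not all lie in endothelial-like nuclei. Of all Stab2 UMIs in a library, endothelial-like nuclei held 47.0% in ND and 29.6% and 25.7% in the STZ-HFHC mice, and hepatocyte-like nuclei held 19.9%, 13.2% and 22.1%. Stellate or fibroblast-like nuclei held 22.1% of Stab2 UMIs in ND and 2.86% and 6.13% in the STZ-HFHC mice. Their share of all UMIs was 16.2% in ND and 4.48% and 7.49% in the STZ-HFHC mice. Endothelial-like nuclei held 16.6% of all UMIs in ND and 6.23% and 7.45% in the STZ-HFHC mice, so their share of Stab2 UMIs exceeded their share of all UMIs in each library, and by a larger factor in STZ-HFHC. The median over the 7 genes was 45.6% in ND and 25.02% and 25.7% in the STZ-HFHC mice. Clusters with markers of several classes, which were left out of the named classes, held 3.08% of Stab2 UMIs in ND and 38.7% and 32.8% in the STZ-HFHC libraries. Of the nuclei in these clusters, 3.09% in ND and 20.6% and 10.5% in STZ-HFHC were among the highest doublet scores. The largest of these, cluster 7, raised 20 of 20 endothelial and 15 of 18 macrophage markers, and 36 of its nuclei came from ND, 732 from STZ-HFHC 1 and 822 from STZ-HFHC 2. It also raised at least 50% of the stellate or fibroblast list and of the B cell list. The median nucleus held 3911.5 UMIs in cluster 7 and 1873.5 in the endothelial-like cluster 6. Its Stab2 level of 1519 and 1294 CPM in the STZ-HFHC libraries was of the order seen in endothelial-like nuclei, and its Mrc1 level of 626 and 543 CPM was above both classes. Mrc1 had the lowest share in endothelial-like nuclei of each library (40.1%, 18.6% and 18.3%). Macrophage-like nuclei held 4.54% of Mrc1 UMIs in ND and 22.7% and 14.0% in STZ-HFHC, and they were 2.98% of all nuclei in ND and 14.99% and 8.56% in STZ-HFHC.

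Each gene was also set against Stab2 in the same nuclei, a ratio that does not depend on how much RNA without either gene the nuclei hold. In endothelial-like nuclei Mrc1 gave 24.96 UMIs per 100 Stab2 UMIs in ND and 29.6 and 31.5 in the STZ-HFHC mice. In macrophage-like nuclei it gave 102, 174 and 123, above every endothelial-like value. Hepatocyte-like nuclei (34.0, 39.8 and 40.7) and stellate or fibroblast-like nuclei (29.5, 52.2 and 51.7) lay between these classes in each library. Fcgr2b stood out in monocyte-like nuclei of the STZ-HFHC libraries, with 37.0 and 27.4 UMIs per 100 Stab2 UMIs against 7.25 and 6.80 in endothelial-like nuclei, and its ND value of 15.4 came from 4 UMIs. Stab1, a stabilin also known from tissue macrophages, gave 12.8, 25.7 and 24.4 UMIs per 100 Stab2 UMIs in macrophage-like nuclei of ND and the STZ-HFHC mice, against 9.38, 10.4 and 15.2 in endothelial-like nuclei. Hepatocyte-like nuclei overlapped both, at 9.52, 22.7 and 13.9. Clec4g, by contrast, kept to 5.07 to 11.5 UMIs per 100 Stab2 UMIs in the 5 classes plotted.

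**Figure D2:**
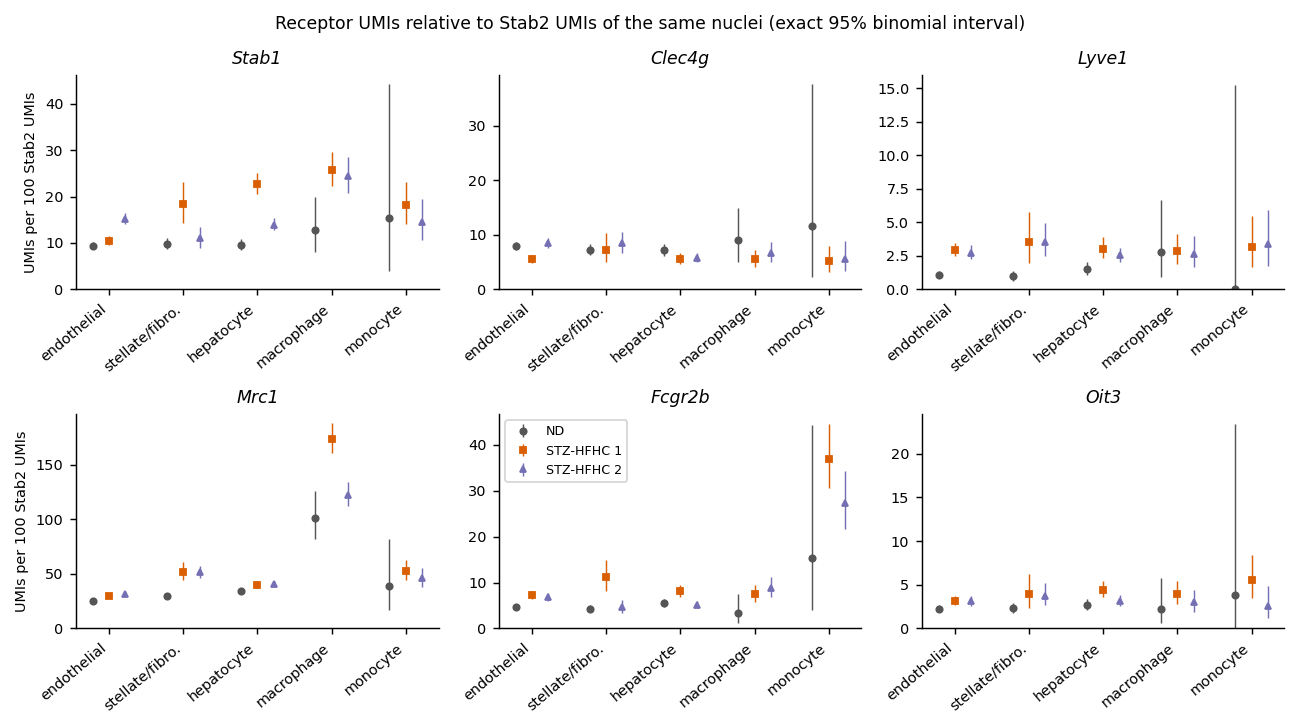
UMIs of 6 genes per 100 Stab2 UMIs (vertical axis, linear from 0) in 5 nuclei classes, with 1 point per library and bars for the exact 95% binomial interval. Mrc1 stands at 102 to 174 in macrophage-like nuclei and at 24.96 to 31.5 in endothelial-like nuclei, and Fcgr2b at 37.0 and 27.4 in monocyte-like nuclei of the STZ-HFHC libraries.

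The next comparison was of endothelial-like nuclei between STZ-HFHC and ND. A gene was counted as past the size rule if its UMIs summed to at least 50 and its level was at least 2-fold higher, or 2-fold lower, in both STZ-HFHC mice than in the ND mouse. By CPM, 1 of the 7 genes was past it on the higher side, where 8.19% of 11722 genes were, and none was past it on the lower side, where 5.11% were. That gene was Lyve1, with log2 ratios of 2.35 and 1.52 in the STZ-HFHC mice and a mean of 1.93 ± 0.59 (SD, n = 2). Fcgr2b had log2 ratios of 1.56 and 0.72, Oit3 1.40 and 0.62, Mrc1 1.16 and 0.51, and Stab1 1.06 and 0.87, each past 2-fold in STZ-HFHC 1 alone. Stab2 had 0.91 and 0.17, and Clec4g 0.40 and 0.26. The median over the 7 genes of the mean log2 ratio was 0.96, beside 0.11 over all genes tested. Lyve1 alone passed with median-ratio size factors too (background 6.6% higher and 6.52% lower) and with the hepatocyte-like level subtracted (37.5% and 3.27%). It alone passed without STZ-HFHC 1 (9.55% of all genes higher), while 5 genes passed without STZ-HFHC 2 (15.7%). Without sub-cluster 4, in which most nuclei had high doublet scores, 5 passed (12.7%). That setting took out 98 and 266 STZ-HFHC nuclei and 1 from ND. Sub-cluster 2, with 801 ND nuclei, was kept, although its marker levels were close to those of sub-cluster 4. Endothelial markers were at 1654 CPM in sub-cluster 2 and 1705 CPM in sub-cluster 4, and hepatocyte markers at 18106 and 16395 CPM. All 7 receptor genes passed where no upper gene limit and no mitochondrial limit was set (15.3%).

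The direction of most of these differences depended on what the level was scaled to. Each of the 20 endothelial markers was also higher by CPM in both STZ-HFHC libraries than in ND, from 2.23- to 5.98-fold in STZ-HFHC 1 and from 1.05- to 3.02-fold in STZ-HFHC 2. Set against the summed UMIs of these markers, none of the 7 genes was past the rule (background 1.51% higher and 30.2% lower of 11722 genes), and the median over the 7 was -0.24 beside -1.09 over all genes. Stab2 was then lower in STZ-HFHC, by log2 ratios of -0.66 and -0.65, and Clec4g by -1.17 and -0.56. Mrc1 stood at -0.41 and -0.32, Oit3 at -0.17 and -0.21, Fcgr2b at -0.016 and -0.10, and Stab1 at -0.51 and 0.041. Lyve1 alone of the 7 stayed higher in both mice, with log2 ratios of 0.78 and 0.69.

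The levels were then compared where the ND and STZ-HFHC nuclei were most alike in endothelial marker content. In sub-clusters of endothelial-like nuclei, chosen after seeing the data as the ND-led and STZ-HFHC-led pair with the closest endothelial marker levels, Stab2 was at 1956 CPM in ND (287 nuclei) and 1891 and 1410.1 CPM in STZ-HFHC (405 and 568 nuclei). Mrc1 was at 469.6 CPM in ND and 497 and 458 CPM in STZ-HFHC, and Stab1 at 168 against 181 and 218 CPM. Clec4g was at 160.4 CPM in ND and 101 and 121 CPM in STZ-HFHC, log2 ratios of -0.66 and -0.40. Lyve1 was at 20.9 CPM in ND and 61.5 and 44.9 CPM in STZ-HFHC, log2 ratios of 1.54 and 1.09. Lyve1 was again the only gene of the 7 past the size rule, against 3.55% of all genes on the higher side. The median log2 ratio of the 7 was 0.024 in this pair, given without that of all genes. The match was not exact, with endothelial markers at 5088 CPM in the ND-led and 5862 CPM in the STZ-HFHC-led sub-cluster. Per 1000 endothelial marker UMIs, Stab2 had 385 UMIs in ND against 282 and 264 in STZ-HFHC, and Lyve1 had 4.11 against 9.17 and 8.40.

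Among the receptors themselves, Lyve1 made up 0.713% of the 7 genes' UMIs in endothelial-like nuclei of ND against 1.83% and 1.63% in the STZ-HFHC mice. The share of Lyve1 was also higher in stellate or fibroblast-like nuclei, at 0.621% in ND against 1.78% and 1.94%, and in hepatocyte-like nuclei, at 0.914% against 1.64% and 1.47%. It was not higher in macrophage-like nuclei, at 1.205% in ND against 0.891% and 0.977%, from 55 UMIs in all. Fcgr2b went from 3.09% to 4.56% and 4.05% in endothelial-like nuclei, while Stab2 went from 66.6% to 63.0% and 59.6%. The share of Clec4g was 5.25% in ND and 3.48% and 5.01% in the STZ-HFHC mice, so its difference was mostly that of 1 mouse. Over whole libraries, where fewer nuclei of a type and less RNA per nucleus cannot be told apart, Lyve1 was at 3.56 CPM in ND and 10.1 and 8.52 CPM in STZ-HFHC. Lyve1 was past the size rule there and the other 6 genes were not, against 13.6% of 16829 genes on the higher side and 4.74% on the lower. Stab2 was at 321, 361 and 298 CPM over whole libraries, and Clec4g at 24.1, 20.5 and 22.6 CPM.

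**Figure D3:**
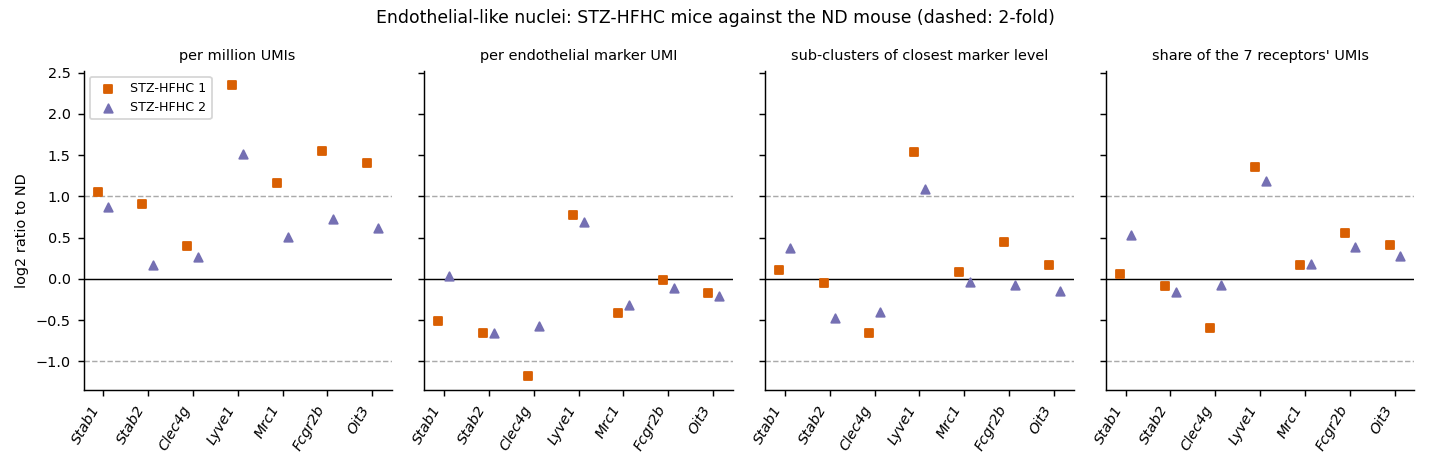
Log2 ratio of each STZ-HFHC mouse to the ND mouse in endothelial-like nuclei for the 7 genes, with 1 point per mouse, by 4 measures: CPM, UMIs per endothelial marker UMI, CPM in the sub-clusters of closest marker level, and the share among the UMIs of the 7 genes. Lyve1 is above 0 in both mice by every measure, and Stab2 changes side between the CPM and the other measures.

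In macrophage-like nuclei, 2 of the 7 genes were past the size rule on the higher side, where 14.2% of 10284 genes were, and none on the lower side, where 5.27% were. Stab1 was at 23.1 CPM in ND and 70.1 and 68.3 in the STZ-HFHC mice, log2 ratios of 1.57 and 1.53. Fcgr2b was at 6.04 CPM in ND (6 UMIs) against 20.2 and 24.7 CPM, log2 ratios of 1.64 and 1.92. Its ND level was below the 6.56 CPM of hepatocyte-like nuclei in the same library and is read as background, and its direction turned with the clustering at a resolution of 0.5 (mean log2 ratio -0.65) and with thinning to 1000 UMIs (-1.05), as that of Mrc1, given next, also did. Mrc1 was at 183, 474 and 343 CPM, log2 ratios of 1.37 and 0.90. The same 2 genes passed with median-ratio size factors (background 11.3% higher and 7.69% lower), and with the hepatocyte-like level subtracted Stab1, Stab2, Mrc1 and Oit3 did, where 51.2% of genes were higher and 4.12% lower. The macrophage-like nuclei too lay in different clusters: 237 of 253 in ND were in cluster 19, led by Il1b, Clec4f and Slit1, and in the STZ-HFHC libraries 1337 of 1337 and 933 of 935 were in cluster 4, led by Gpnmb, Atp6v0d2 and St18. The summed macrophage markers were at 1639 CPM in ND and 3786 and 2455 CPM in STZ-HFHC, and the hepatocyte markers at 19300 against 9411 and 14942 CPM. Their part in these differences was not tested.

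Sub-clustering of the endothelial-like nuclei, again without the 7 genes, gave 7 groups. Sub-cluster 6 (18 ND nuclei, 70 and 121 STZ-HFHC nuclei) was led by Vwf, Thsd7a and Myrip, and raised 6 of 10 central, 6 of 10 large vessel and 4 of 11 portal endothelial genes. It had 58.2 and 61.5 Stab2 UMIs per 1000 endothelial marker UMIs in STZ-HFHC 1 and 2, where the other STZ-HFHC sub-clusters had 172 to 282. Clec4g, Lyve1 and Oit3 had 3 UMIs each in it in STZ-HFHC 1, the number used as the floor of detection, and 13, 4 and 3 UMIs in STZ-HFHC 2. Stab1 was closer to the others, at 19.6 and 30.3 UMIs per 1000 marker UMIs against 24.9 to 40.8 in the other STZ-HFHC sub-clusters. Sub-cluster 3 (282 and 122 nuclei of STZ-HFHC 1 and 2, and 1 of ND) raised 8 of 11 portal and 4 of 10 central genes and had the highest Stab2 levels by CPM, 3119 and 3028. Its endothelial markers were at 11737 CPM, against 1654 to 7432 CPM in the other sub-clusters. Raised genes were called by CPM, at 2-fold over the median of the other sub-clusters and in at least 5% of nuclei. The part of the marker level in these counts was not tested. Per 1000 marker UMIs sub-cluster 3 had 261 and 271 Stab2 UMIs, as sub-cluster 1 did with 282 and 264. In the ND-led sub-clusters 2 and 5 this ratio was 393 and 385. Sub-cluster 4, of STZ-HFHC nuclei in all but 1, had 60.3% of nuclei among the highest 8% of doublet scores and the same ratio, 249.3 and 274.6. Only sub-cluster 7 had at least 20 nuclei of each library (63 in ND, 46 and 45 in STZ-HFHC). Its Stab2 ratio was 333 in ND against 172 and 263. Its Lyve1 ratio was 7.06 in ND (6 UMIs) against 5.65 (7 UMIs) and 8.05 (6 UMIs), so Lyve1 was not higher in both mice there.

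**Figure D4:**
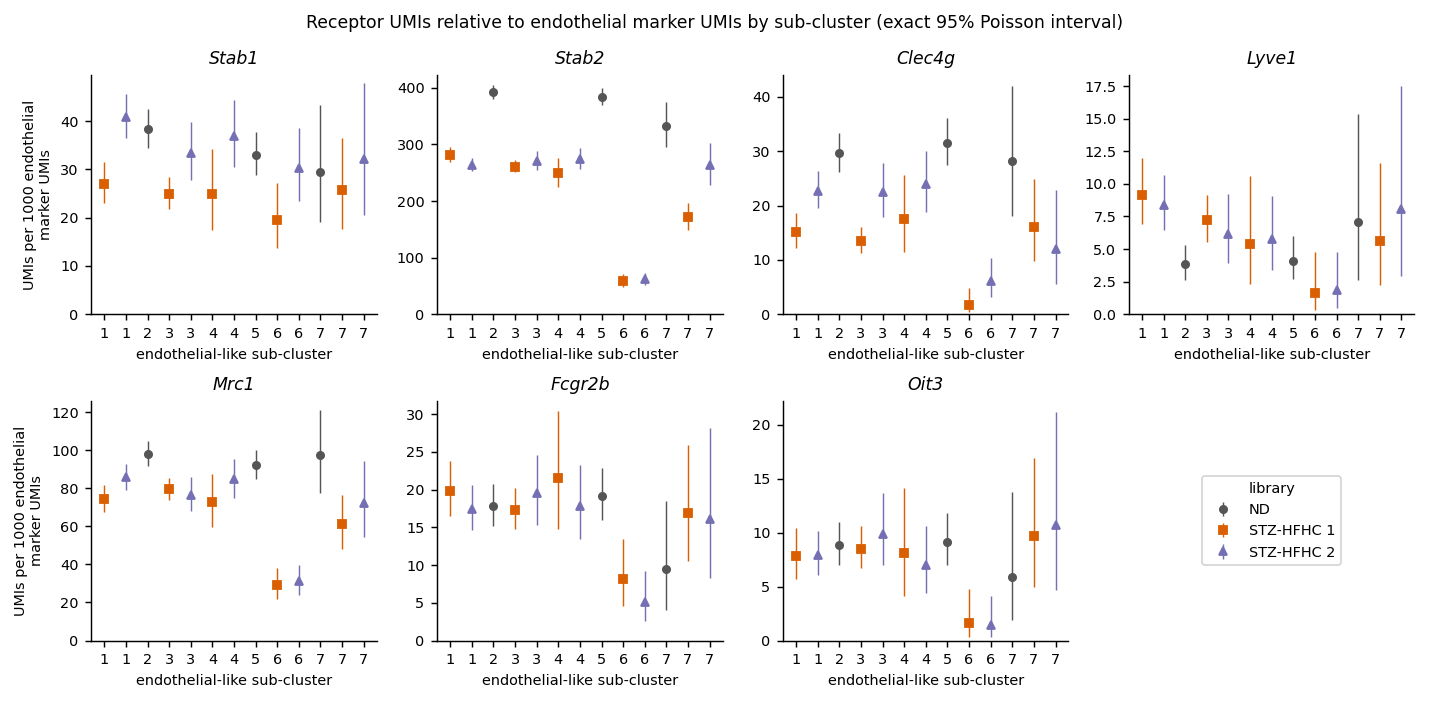
UMIs of each gene per 1000 endothelial marker UMIs (vertical axis, linear from 0) in the 7 endothelial-like sub-clusters, with 1 point for each library with at least 20 nuclei and bars for the exact 95% Poisson interval of the receptor count. Stab2 stands at 333 to 393 in ND, at 172 to 282 in STZ-HFHC outside sub-cluster 6, and at 58.2 and 61.5 in sub-cluster 6.

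Other genes of scavenging and of the sinusoidal wall were counted from fixed lists in the same endothelial-like nuclei, by CPM and against the 8.19% and 5.11% of all genes past the rule on the higher and the lower side. Per endothelial marker UMI the shares of all genes were 1.51% and 30.2%, with a median log2 ratio of -1.09. Of 22 other scavenger receptors, 13 had enough UMIs, of which 3 were higher and 1 was lower. Cd36, the fatty acid and oxidized lipoprotein receptor, was at 40.6 CPM in ND and 523 and 321 CPM in STZ-HFHC, log2 ratios of 3.68 and 2.98, which stayed at 2.11 and 2.15 per endothelial marker UMI. Cxcl16, a scavenger receptor and chemokine, was at 2.97 against 14.1 and 9.41 CPM, and Cd5l, a secreted macrophage protein, at 22.3 against 101 and 61.3 CPM. The macrophage markers summed to 658, 713 and 712 CPM in these nuclei. Per endothelial marker UMI, 1 of the 13 was higher and 7 were lower, beside the 1.51% and 30.2% of all genes.

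Of 24 other lectin and Fc receptors, 14 had enough UMIs and 2 were higher by CPM: Clec14a, a C-type lectin of endothelium, at 12.2 against 79.6 and 33.31 CPM, and Thbd (thrombomodulin) at 1.84 against 19.2 and 4.59 CPM. Neither stayed past the rule per endothelial marker UMI, where none of the 14 was higher and 3 were lower. Of 32 genes of endocytosis and lysosomes, all had enough UMIs and 2 were higher, Lgmn and Hexa, both lysosomal enzymes, with mean log2 ratios of 1.44 each. The median of that list was 0.28, beside 0.11 over all genes and 0.96 over the 7 receptors. Per endothelial marker UMI none of the 32 was higher and 7 were lower, with a median of -0.92. Of 30 other sinusoidal identity genes, 28 had enough UMIs and 7 were higher, among them the Wnt pathway genes Rspo3 (13.01 against 148 and 68.8 CPM) and Wnt9b (0.990 against 14.1 and 8.21 CPM), Flt4 (42.7 against 222 and 102 CPM) and Hgf (43.7 against 174 and 100.2 CPM). Per endothelial marker UMI, 2 of the 28 were higher and 1 was lower. Gpr182, Dnase1l3, F8, Bmp2, Kdr and Plxnc1 are in this list and also among the 20 endothelial markers. Their ratios per endothelial marker UMI are therefore partly set by the scaling.

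Of 29 genes of capillarization and activation, 20 had enough UMIs, 11 were higher and none was lower, with a median log2 ratio of 1.43. Vwf, a clotting protein of continuous endothelium, was at 3.96 CPM in ND and 50.6 and 57.0 CPM in STZ-HFHC. Fabp4, a fatty acid carrier of capillaries, was at 4.95 against 68.7 and 49.7 CPM, Edn1 (endothelin-1) at 0.849 against 14.1 and 11.1 CPM, and Tgfb2 at 1.41 against 10.1 and 9.41 CPM. Per endothelial marker UMI, 4 of the 20 were still higher and the list's median was 0.23, where that of the 7 receptors was -0.24 and that of all genes -1.09. Most UMIs of Vwf, Edn1 and Tgfb2 in STZ-HFHC came from sub-cluster 6, which was 1.53% of the endothelial-like nuclei in ND and 7.77% and 10.8% in STZ-HFHC. It held 82.1% and 90.3% of the Vwf UMIs of the STZ-HFHC mice, 69.2% and 93.5% of those of Edn1 and 64.3% and 74.4% of those of Tgfb2, but 12.6% and 19.9% of those of Fabp4. Without sub-cluster 6, a setting chosen after seeing the data, Vwf was at 2.14 CPM in ND and 9.80 and 6.06 CPM in STZ-HFHC, and Fabp4 at 4.27 against 65.1 and 43.4 CPM. Edn1 and Tgfb2 were left with under 50 UMIs, too few for the size rule, and Lyve1 was still the only one of the 7 receptors past it (7.13% of all genes higher). Of the zone lists, 7 of 10 central, 6 of 11 portal and 6 of 7 measured large vessel genes were higher by CPM, and 3, 2 and 6 were higher per endothelial marker UMI. These counts are not separate from those above, since the lists share genes. Rspo3, Wnt9b, Fabp4 and Thbd recur in the central list, Cd36 in the portal list and Vwf in the large vessel list. Of 8 lymphatic genes, 4 had enough UMIs and 1 of these, Flt4, was higher by CPM and none was lower, while per endothelial marker UMI none was higher and 1, Prox1, was lower. Prox1 was at 403 CPM in ND against 200 and 254 CPM in STZ-HFHC, in nuclei whose hepatocyte markers were at 17749.6 against 10932 and 15134 CPM. The part of hepatocyte RNA in the Prox1 level was not tested. Large vessel genes Bmx, Gja5 and Fbln2 were at 0.990, 0.283 and 0.283 CPM in ND and at 6.51 to 11.9 CPM in STZ-HFHC, and sub-cluster 6 held 66.7 to 93.8% of their UMIs in each STZ-HFHC library. Like Vwf, these 3 genes were among the large vessel genes raised in sub-cluster 6, so their share there is a description. Without sub-cluster 6 all 3 had under 50 UMIs, too few for the size rule, and in the closest pair of sub-clusters Bmx had a mean log2 ratio of -0.17.

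The genes most like each receptor over 24 pairs of class and library were found by Pearson's r of log2(CPM + 1) among 13895 genes. The points share libraries and free RNA, so r is a description. Stab2 was most like the endothelial phosphatase Ptprb (r = 0.97), then Fgd5 (0.97) and Col13a1 (0.96), and Clec4g was most like Stab2 (0.94). Mrc1 and Stab1 had the same closest gene, the transcription factor Maf (0.94 and 0.91). Oit3 and Fcgr2b shared theirs too, the protocadherin Pcdh17 (0.94 and 0.87). Lyve1 was most like Shisa9 (0.92), a leading gene of the STZ-HFHC endothelial-like cluster, then Pgm2 (0.92) and Tmem44 (0.92). Among the 7 genes r ran from 0.50 for Clec4g with Fcgr2b to 0.94 for Stab2 with Clec4g, and Lyve1 with Stab2 had 0.62.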

How the data were processed

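Nuclei of 3 frozen livers were sequenced with the 10x 3′ v3.1 kit. Per the labels, the authors made the deposited gene by barcode matrices of UMI counts with Cell Ranger 7.0.1 and mm10, so values are raw counts per library. Whether intronic reads were counted was not given in the sources used here. The matrices hold 30989 barcodes, the number the study gives as left after its filter, whereas its stated limits (200 to 5000 genes, at most 5% mitochondrial counts) left 28336. Scanpy 1.11.5 and leidenalg 0.10.2 (2000 variable genes, 30 components, 15 neighbours, resolution 1) clustered these nuclei without the 7 genes. A cluster was named from at least 3 markers making up 33.3% of a list, each 2-fold over the median of the other clusters, and left out as mixed if another list reached 50%. The macrophage, monocyte, dendritic and neutrophil lists did not count against each other in this. Cluster 9, the monocyte-like class, had the dendritic list as its next most raised and Flt3 among its leading genes. Hepatocyte-like clusters without strong markers were named at 1.2-fold. Doublets were kept, since the Scrublet threshold marked almost none, and the highest 8% of scores were left out as an alternative.

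Counts were summed per class and library and scaled to all UMIs of the class (CPM). Intervals are exact 95% Poisson or binomial ones and cover counting error only. Log2 ratios added 0.5 to each count. With 1 ND mouse no test was made and no p-value is given. Pathway genes named are at most 4 per list and direction, by the smaller of the 2 log2 ratios among those past the size rule. The values of 1 such gene are not reported here. Genes and lists were chosen with earlier results of these data known. The scripts were tested on simulated data. Alternatives covered barcode limits, doublets, resolution, depth, scaling, subtraction of the hepatocyte-like level, the UMI minimum and leaving out each STZ-HFHC mouse.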

Additional observations from a re-analysis of the deposited data

Results flagged for a closer look

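The log2 ratio of STZ-HFHC to ND by CPM had opposite signs in endothelial-like nuclei and in another class, in both STZ-HFHC mice, for 6 of the 7 genes. The difference between the classes was not tested, since there is 1 ND mouse. In stellate or fibroblast-like nuclei the mean log2 ratio was -0.34 for Stab1 (0.96 in endothelial-like nuclei), -0.89 for Stab2 (0.54), -0.75 for Clec4g (0.33), -0.069 for Mrc1 (0.83) and -0.14 for Oit3 (1.01). In hepatocyte-like nuclei it was -0.39 for Stab2, -0.72 for Clec4g and -0.17 for Fcgr2b (1.14 in endothelial-like nuclei). Lyve1 had no such pair of classes. The summed hepatocyte markers were at 16630.8 CPM in stellate or fibroblast-like nuclei of ND and at 7957 and 10876 CPM in those of STZ-HFHC. The summed endothelial markers were at 1276 CPM in those of ND and at 1208 and 1237 CPM in those of STZ-HFHC. In hepatocyte-like nuclei they were at 315, 300 and 322 CPM, and in endothelial-like nuclei at 2386, 7097 and 4232 CPM. Scaled to these endothelial markers, all 6 genes had a negative mean log2 ratio in endothelial-like nuclei. The part of free RNA and of the scaling in these signs was not tested.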

How the results depend on the processing

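No paired analysis was made, because the 1 ND mouse and the 2 STZ-HFHC mice are separate animals that replicate numbers do not link. The number of the 7 genes past the size rule in endothelial-like nuclei, 1 as reported, became 2 with high doublet scores left out (9.99% of all genes higher), 4 with each library clustered on its own (13.7%), 7 without the upper gene and mitochondrial limits (15.3%), 2 with the mixed cluster added (16.2%), 5 without the sub-cluster of high doublet scores (12.7%), 0 when scaled to endothelial markers (1.51%, and 30.2% lower), and 1 to 5 on leaving out an STZ-HFHC mouse (9.55% and 15.7%). Their median log2 ratio, 0.96 as reported, became 1.92 without those limits, 0.46 with nuclei thinned to 1000 UMIs, 1.46 without that sub-cluster, 0.024 in the closest sub-clusters and -0.24 when scaled to endothelial markers, with 0.62 to 1.16 on leaving out a mouse. In macrophage-like nuclei the number, 2 as reported, became 4 with high doublet scores left out (16% of all genes higher), 0 at resolution 0.5 (9.23%, and 12.5% lower), 1 (Clec4g, lower, as 9.91% of all genes) when thinned, 4 with the hepatocyte-like level subtracted (51.2% higher), and 2 to 4 on leaving out a mouse (15.6% and 21.1%). Fcgr2b turned there to -0.65 at resolution 0.5 and -1.05 when thinned, and Bmx to -0.17 in the closest endothelial-like sub-clusters. The sub-cluster of high doublet scores was of STZ-HFHC nuclei in all but 1. The ND-led sub-cluster 2, of similar marker levels, was kept in that setting. The cause of the changes between settings was not tested.

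The median share of the genes' UMIs in endothelial-like nuclei of ND, 45.6%, became 46.8% with high doublet scores left out, 47.3% at resolution 0.5, 32.2% with each library clustered on its own, 31.1% without the limits and 50% when thinned. That of STZ-HFHC, 25.3%, became 24.6% with high doublet scores left out and at resolution 2, 0.0477% at resolution 0.5, 21.7%, 14.6% and 55.4%. The endothelial-like share of ND nuclei, 13.8%, became 16.1% at resolution 0.5, 10.3% with libraries clustered apart, 14.9% without the limits and 11.9% when thinned. That of STZ-HFHC, 10.2%, became 9.36% with high doublet scores left out, 0.0422% at resolution 0.5, 9.88% at resolution 2, 8.49%, 7.19% and 17.5%. At resolution 0.5 the endothelial-like comparison could not be made, since 1 nucleus was left in a library, nor could the macrophage-like one with libraries clustered apart, with 0 ND nuclei. The mean log2 ratios of the 7 genes in endothelial-like nuclei changed sign in 9 of 105 values under the alternatives: Stab1, Stab2, Clec4g, Mrc1, Fcgr2b and Oit3 when scaled to endothelial markers, Stab2 and Clec4g in the closest sub-clusters, and Clec4g when thinned. In macrophage-like nuclei 14 of 69 did, of which 5 at resolution 0.5 and 5 when thinned, and among the other named genes 1 of 343 did, Bmx. The alternatives on sub-clusters and the mixed cluster were chosen after seeing the data. With 39 ND monocyte-like and 253 ND macrophage-like nuclei, low genes rest on few UMIs there.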
